A study of Mus musculus with 12 samples.

Results

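The Hox genes encode homeodomain transcription factors that lie in 4 clusters, named a to d, and the rows of the deposited table whose symbol is Hox, a cluster letter and a number were taken as members. This rule found 39 genes among 21611, with 11 in the Hoxa cluster, 10 in Hoxb, 9 in Hoxc and 9 in Hoxd. The rule used symbols only and no measured value. Members entered the tests when 2 or more of the 12 libraries held a normalized count of 10 or above, which 23 of them did. The other 16 members were Hoxa4, Hoxa11, Hoxa13, Hoxb1, Hoxc4, Hoxc5, Hoxc6, Hoxc8, Hoxc9, Hoxc10, Hoxc11, Hoxc12, Hoxd1, Hoxd11, Hoxd12 and Hoxd13, of which Hoxa11, Hoxc12 and Hoxd12 had no read in any library.

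The order of Hox genes along a cluster follows the order of their expression along the body axis, so that low-numbered genes act in the hindbrain and neck and high-numbered genes act towards the tail. Genes with the same number in different clusters, called paralogs, descend from 1 ancestral gene. The forebrain, from which the cerebral cortex forms, is patterned without Hox genes. Their silencing is kept by Polycomb complexes and opposed by Trithorax-type complexes, retinoic acid opens the clusters during development, and Hox proteins bind DNA with TALE partners of the Pbx, Meis and Pknox families. In blood vessels, Hoxd3 and Hoxb3 are known from work on cultured cells as genes of growing endothelium, and Hoxa5 and Hoxd10 as genes of resting endothelium.

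All 12 libraries were messenger RNA from cultured primary cortical endothelial cells (ECs) of wild-type C57BL/6J mice. The E13.5 group (n = 3) came from embryos, and the adult control group (n = 3) from untreated cultures of adult mice, male and 2 to 3 months old by the methods. Adult cultures were also treated with Wnt3a (n = 2, 200 nM in the labels and a mass concentration in the methods), a ligand that activates β-catenin, or with MS-275 (n = 4, 10 µM), an inhibitor of class I histone deacetylases (HDACs), which by the methods were given for 48 h. The study asked how gene expression in these cells differs between the stage when the blood-brain barrier forms and the adult, and what the 2 agents change in adult cells. Cells of 1 litter were pooled as 1 replicate, and cultures were used at the second passage. The methods give 2 replicates for MS-275 where the labels give 4.

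The clusters were located in the mouse genome build mm10. The Hoxa cluster spans chr6:52155590-52260880 on the minus strand and Hoxb spans chr11:96194316-96368256 on the plus strand. Hoxc spans chr15:102921103-103036852 and Hoxd spans chr2:74668310-74765142, both on the plus strand. The clusters also carry microRNA genes, short RNAs that pair with messenger RNAs through a seed, bases 2 to 8. They are shown because their seeds fall in pairs across clusters and because Hox messengers are among their known targets. Capitals mark the seed, in mature sequences from RefSeq (GRCm38.p6).
miR-10a-5p: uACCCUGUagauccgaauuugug
miR-10b-5p: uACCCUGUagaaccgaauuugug
miR-196a-5p: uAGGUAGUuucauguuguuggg
miR-196b-5p: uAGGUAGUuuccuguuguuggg
The miR-10a gene lies between Hoxb5 and Hoxb4 (chr11:96317186-96317208) and miR-10b within the span of Hoxd3 and Hoxd4 (chr2:74726074-74726096). The genes of miR-196a lie between Hoxb13 and Hoxb9 (chr11:96265187-96265208) and within the span of Hoxc5 (chr15:102973365-102973386), and miR-196b lies within that of Hoxa9 (chr6:52230129-52230150). The microRNAs themselves were not measured here. The letters that pair with the miR-196 seed, ACTACCT, stood in the 3′ UTR of 9 of 39 members (23.1%), against 6.02% of 21245 genes, at median 3′ UTR lengths of 969 and 931 bases. They included Hoxa4, Hoxa5, Hoxa7, Hoxa9, Hoxb1, Hoxb6, Hoxb7 and Hoxc8. The match to the miR-10 seed, ACAGGGT, stood in 4 of 39 (10.3%), against 12.2% of genes. In all, 9 seeds of the clusters were searched. Hoxb8 has no such 7-letter match, but 21 of 22 letters of a site in its 3′ UTR (chr11:96284888-96284909) pair with miR-196a and 1 forms a G:U pair, shown as the lower-case letter.
Hoxb8 site: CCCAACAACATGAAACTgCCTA
These matches describe the letters and not the use of a site.

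A pair of promoters is shown for the highest member of the adult Hoxb cluster and for the one that kept the largest share of its level under MS-275 among those that fell there, Hoxb8 (250 bases before the start, chr11:96281655-96281904) and Hoxb4 (chr11:96318017-96318266), both on the plus strand. Searched on both strands were TATAAA (the letters of a TATA box), CCAAT (the box of that name), CACGTG (an E box) and TGATNNAT (a joint site of Pbx and Hox proteins), with no overlap removed. Capitals mark a match.
Hoxb8: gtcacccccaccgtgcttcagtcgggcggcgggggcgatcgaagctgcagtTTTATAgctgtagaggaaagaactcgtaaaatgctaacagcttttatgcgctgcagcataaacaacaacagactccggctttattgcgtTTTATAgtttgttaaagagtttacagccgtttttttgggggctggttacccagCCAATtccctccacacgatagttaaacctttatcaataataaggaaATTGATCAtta
Hoxb4: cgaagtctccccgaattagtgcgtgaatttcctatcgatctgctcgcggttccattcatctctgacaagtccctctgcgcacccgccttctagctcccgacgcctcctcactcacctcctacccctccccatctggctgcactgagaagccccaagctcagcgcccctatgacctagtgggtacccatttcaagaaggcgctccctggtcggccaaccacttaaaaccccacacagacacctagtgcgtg
The Hoxb8 window held CCAAT on the strand shown and the letters TATAAA and TGATNNAT on the opposite strand. The Hoxb4 window held no match. These matches describe letters at any place in the window and not a working box or site. RefSeq promoters were matched for 22 of the 39 genes, 24 promoters in all. TATAAA stood in 4 of the 24 (16.7%), against 11.2% of 20141 promoters, CCAAT in 14 (58.3%) against 35.1%, CACGTG in 4 (16.7%) against 6.83%, and TGATNNAT in 4 (16.7%) against 6.38%. The G and C content was 44.4% for Hoxb8 and 58.0% for Hoxb4, with medians of 58.6% over the Hox promoters and 56.0% over all.

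The libraries held 20804279 to 33149580 reads on genes. The normalized counts of all 39 members summed to 38.3 ± 4.98 (SD, n = 3) at E13.5, 20570 ± 4632 (n = 3) in adult control, 16940 ± 11420 (n = 2) in Wnt3a and 2405 ± 335 (n = 4) in MS-275. The label of the cells was checked against 12 endothelial markers. Their summed normalized count was 284700 to 382300 in adult control and 241600 to 284400 in Wnt3a, but 1108 to 1807 at E13.5 and 19950 to 37150 in MS-275. None of the 12 was without a read in any group, yet Pecam1 and Cdh5, which hold endothelial cells together, stood at 59.5 ± 12.9 and 74.8 ± 28.8 (SD, n = 3) at E13.5, against 71700 ± 11640 and 82470 ± 7459 in adult control. The libraries labelled E13.5 thus held little of the RNA that defines the labelled cell type. Library pairs were also closer than their groups. MS-275 replicates 2 and 4, and 1 and 3, differed by a chi-square of 6.65 and 27.5 per gene, while the remaining pairs of that group gave 144 to 204. Adult control 1 and 2 (10.3, against 236 and 266) and E13.5 2 and 3 (4.91, against 79.7 and 80.8) were close as well. All these pairs differed by more than sampling noise, which does not show that they came from separate cultures. The labels name each library a biological replicate, and all were kept as separate libraries. Whether a close pair was 1 culture measured again cannot be told from these data. If so, the standard errors and p-values given here are too small.

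**Figure D1:**
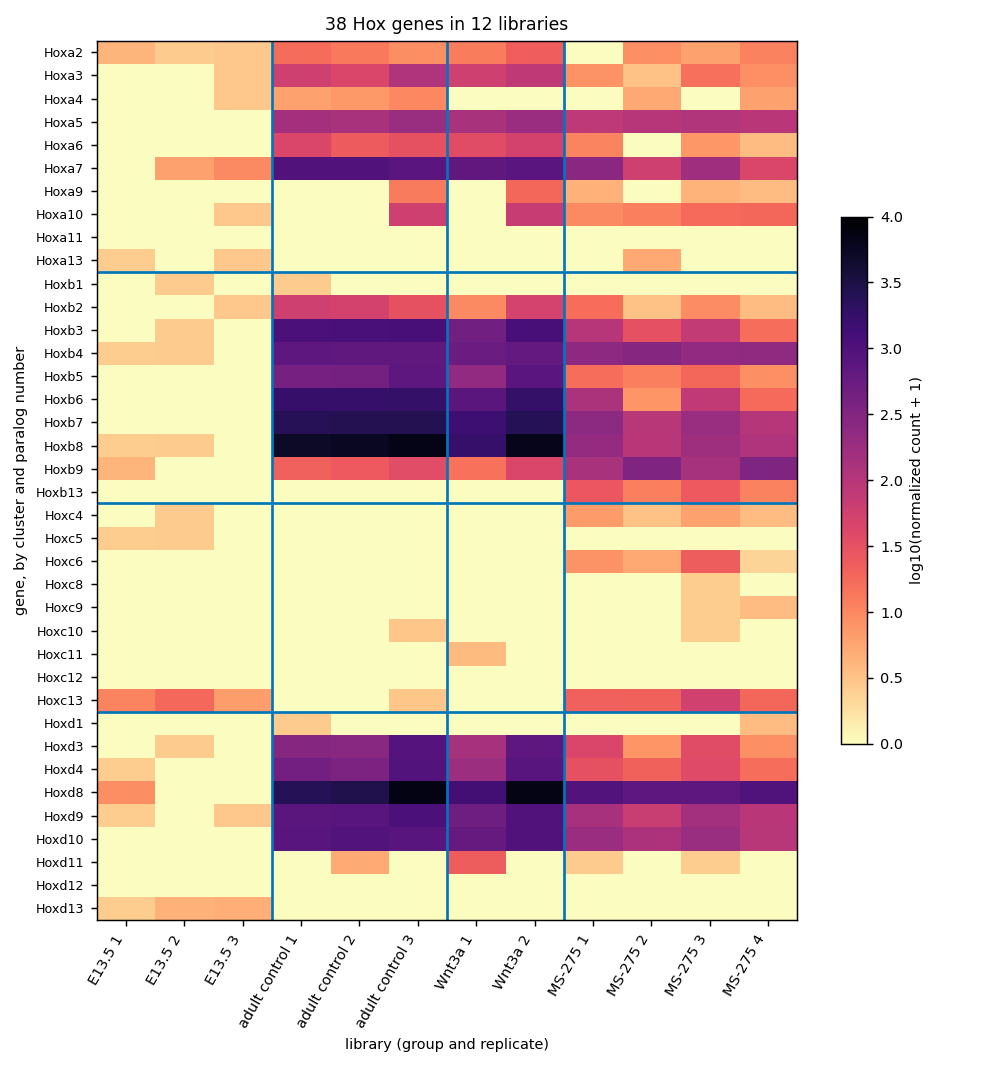
Normalized counts of 38 members (rows, by cluster and paralog number) in the 12 libraries (columns, by group), as log10 of the count plus 1, with lines between clusters and groups. At E13.5 no member is at 10 or more in all 3 libraries, and the adult columns carry a dark block in Hoxb and Hoxd.

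In adult control the expressed members formed continuous blocks in 2 of the clusters. Taking a member as expressed when every library held 10 or more, 17 of 39 members were expressed: all 8 from Hoxb2 to Hoxb9, all 5 from Hoxd3 to Hoxd10, and in Hoxa Hoxa3 and the run Hoxa5 to Hoxa7. No member of Hoxc was expressed. With a minimum of 50, 13 members remained above it, namely Hoxb3 to Hoxb8, Hoxd3 to Hoxd10, Hoxa5 and Hoxa7. The Hoxb cluster summed to 12440 ± 1174 (SD, n = 3), Hoxd to 6936 ± 3472 and Hoxa to 1193 ± 30.3, while Hoxc summed to 1.31 ± 2.28.

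Per kb of exon, which allows genes to be compared, the levels peaked at paralog number 7 in Hoxa and 8 in Hoxb and Hoxd. Hoxb8 was highest with 2177 ± 333 normalized counts per kb (SD, n = 3), followed by Hoxb7 (1943 ± 70.9), Hoxd8 (1511 ± 972) and Hoxb6 (902 ± 14.9). The ranges of neighbours in this order overlapped among these 4 genes. The next member, Hoxd10 (470 ± 29.2), lay apart from Hoxb6, and from there to Hoxa5 (81.3 ± 14.6), through Hoxd9, Hoxa7, Hoxb3, Hoxb5, Hoxb4, Hoxd4 and Hoxd3, each gene overlapped with the next. Hoxb9, the neighbour of Hoxb8 in the cluster, stood at 10.4 ± 2.97 per kb. Reads of Hoxd3 and Hoxd4 could not be told apart in full, since 80.6% of the exon bases of Hoxd3 and 45.1% of those of Hoxd4 overlap other coding genes on the same strand. Antisense transcripts cover 63.9% of the exon bases of Hoxb3, 58.5% of Hoxb2, 25.6% of Hoxa3 and 23.2% of Hoxa7, and the sources used here do not give the strand setting of the counting.

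**Figure D2:**
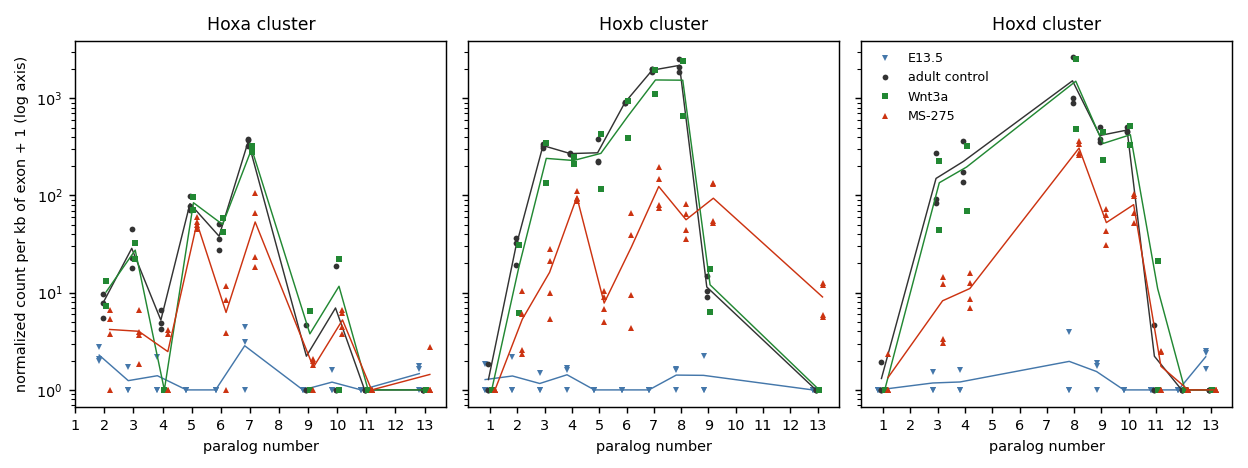
Level per kb of exon plus 1 (log axis) against paralog number in the Hoxa, Hoxb and Hoxd clusters, with points for libraries and lines through group means. Adult control and Wnt3a peak at number 7 or 8 and fall off towards the ends of each cluster, E13.5 stays near the base line, and MS-275 lies between them for most members but above adult control at Hoxb9 and Hoxb13.

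Adult control was compared with E13.5 to see which members differ between the stages. The Hoxb and Hoxd blocks and part of Hoxa were present in adult control and nearly without reads at E13.5. By limma, 17 of the 39 members were higher in adult control (8 of Hoxb, 5 of Hoxd and 4 of Hoxa), 1 was lower and 5 of the tested members did not pass, against 19.5% of 15452 tested genes higher and 32.8% lower. No member held 10 or more in 2 E13.5 libraries, so every tested member passed the filter through the adult libraries, treated or not. For the 17, a rise was therefore nearly the only call open, and their number is not an even comparison with the share over all genes. Members without a read at E13.5 also add no spread from that group to their standard errors. Over all 39 members the median log2 difference was 1.43, or 1.96 with genes that lacked reads in a group set at their bound, beside −0.05 over all genes. Every library of one group lay beyond every library of the other for 19 members higher and 2 lower in adult control, where 23.9% and 38.0% of tested genes did. These counts cover all 39 members, with Hoxa4 among the 19 and Hoxd13 among the 2 not tested. Hoxd13 had 10 reads over E13.5 and none in adult control. Endothelial markers moved with the Hox genes, 12 of 12 higher in adult control, and so did markers of other cells in the opposite direction: 8 of 8 neuronal markers were lower in adult control (summed count 3.47 to 4.07, against 8429 to 11580 at E13.5, with 3 of the 8 without a read in adult control), as were 8 of 10 neural progenitor markers, 6 of which had no read in adult control. The summed progenitor level overlapped, at 110800 to 153600 against 132900 to 139800. Of the remaining lists, 6 of 7 astrocyte (3899 to 5188 against 18510 to 20050), 5 of 6 oligodendrocyte lineage (20.8 to 31.6 against 4964 to 5454), 6 of 8 pericyte and smooth muscle (87.6 to 102 against 30070 to 49800), 7 of 8 fibroblast (208 to 323 against 5535 to 14970) and 6 of 8 microglial markers (116 to 221 against 420 to 493) were lower in adult control. Of 9 blood markers, 1 was higher and 3 were lower (42860 to 72440 against 2616 to 3524). The part of these cells in the Hox result was not tested, and in bulk RNA a smaller number of cells cannot be told apart from less RNA in each cell.

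The highest member was Hoxb8 (chr11:96281905-96285315), a gene of the trunk that is also active in myeloid progenitors. It stood at 4955, 5572 and 6685 in adult control 1 to 3 and at 1.59, 1.73 and 0 in E13.5 1 to 3. The groups lay 3 orders of size apart, with a log2 fold change of 11.53 ± 0.52 (SE, adjusted p = 2.37e-08) and 4 reads in all at E13.5. Its neighbour Hoxb7 (chr11:96286623-96290162) had 2403, 2555 and 2567 in adult control and no read at E13.5, at least 2887-fold higher against a floor of 3 reads over the group (log2 11.29 ± 0.38, adjusted p = 3.93e-09). Hoxb6 (chr11:96292476-96301569), a gene of the lateral plate mesoderm, had 1767, 1745 and 1803 in adult control and no read at E13.5, at least 2044-fold higher (log2 10.79 ± 0.86, adjusted p = 1.35e-06). These 3 genes were steady among the adult controls, none varying by more than 1.5 times.

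The front members of the Hoxb block were lower but equally separated. Hoxb5 (chr11:96303336-96306121), a marker of blood stem cells in the mouse, had 416, 424 and 716 in adult control and no read at E13.5, at least 594-fold higher (log2 8.97 ± 0.50, adjusted p = 9.44e-08). For Hoxb4 (chr11:96318267-96321638), known for expanding blood stem cells, the adult values were 700.0, 684 and 683, against 1.59, 1.73 and 0 (log2 8.49 ± 0.36, adjusted p = 1.40e-08). Hoxb3 (chr11:96323326-96347930) was measured at 1088, 1144 and 1202, against 0, 1.73 and 0 (log2 9.68 ± 0.67, adjusted p = 4.32e-07). Hoxb5 was higher in adult control 3 than in the other 2, while Hoxb4 and Hoxb3 were nearly equal in all 3. At the ends of the block, Hoxb2, which patterns the hindbrain, averaged 45.9 ± 14.5 against 0.636 ± 1.10 (log2 4.98 ± 0.80, adjusted p = 3.01e-04), and Hoxb9, which patterns the ribs, 26.9 ± 7.65 against 1.06 ± 1.83 (log2 4.08 ± 0.67, adjusted p = 3.81e-04).

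In the Hoxd cluster all 5 members of the block were higher in adult control, with a wide spread among the adult libraries for 3 of them. Hoxd8 (chr2:74704615-74707933) had 2459, 2759 and 7221 in adult control and 7.95, 0 and 0 at E13.5 (log2 10.78 ± 0.83, adjusted p = 1.05e-06). In the case of Hoxd4 (chr2:74711929-74729160) the values were 440, 352 and 919, against 1.59, 0 and 0 (log2 8.57 ± 0.65, adjusted p = 8.46e-07). Adult control 3 held more than 2 times the level of the other controls for both genes, and likewise for Hoxd3, which averaged 482 ± 349 against 0.578 ± 1.00 (log2 8.21 ± 0.88, adjusted p = 1.39e-05). Hoxd9 (chr2:74697727-74700208), which with its paralogs shapes the limb, had 752, 815 and 1077, against 1.59, 0 and 1.91 (log2 8.80 ± 0.47, adjusted p = 7.20e-08). Hoxd10 (chr2:74691924-74695105), a limb and spinal motor neuron gene, had 812, 913 and 834 and no read at E13.5, at least 981-fold higher (log2 9.74 ± 0.32, adjusted p = 3.54e-09). These last 2 genes were within 1.5 times of each other in the 3 adult controls.

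Hoxa7 (chr6:52214491-52221854), a gene of the trunk vertebrae, led its cluster. It had 932, 942 and 797 in adult control and 0, 5.20 and 8.59 at E13.5 (log2 7.83 ± 0.83, adjusted p = 1.19e-05), so that the lowest adult library lay far above the highest embryonic one. Hoxa5, which is needed in the lung and neck vertebrae, averaged 153 ± 27.4 with no read at E13.5, at least 176-fold higher (log2 7.25 ± 0.30, adjusted p = 1.28e-08). Hoxa3, needed for the thymus and parathyroid, averaged 71.5 ± 37.7 against 0.636 ± 1.10 (log2 5.54 ± 0.65, adjusted p = 2.79e-05), and Hoxa6 32.4 ± 10.1 with no read at E13.5, at least 38.1-fold higher (log2 5.02 ± 0.74, adjusted p = 1.54e-04). Hoxa2, Hoxa9, Hoxa10 and Hoxb13 were among those that did not pass the test. Hoxa2, a gene of the second pharyngeal arch, stood at 11.9 ± 3.87 against 2.27 ± 0.788 (log2 1.96 ± 0.78, adjusted p = 0.0557), with all adult libraries above all embryonic ones.

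Hoxc13, a regulator of hair keratins, was the only member called lower in adult control. It had 2 reads over the adult controls and 38 over E13.5, where the libraries stood at 9.54, 17.3 and 5.72 normalized counts. The ratio of adult control to E13.5 was 0.0578 with a 95% exact counting interval of 0.00676 to 0.224 (log2 −2.92 ± 0.60, adjusted p = 0.00176). This call was lost under quantile normalization (log2 −1.42, adjusted p = 0.153). Since 1 library of these groups reached 10, Hoxc13 entered the test through the MS-275 libraries, and it was not tested with a filter of 50 or in a fit of the 2 groups alone.

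**Figure D3:**
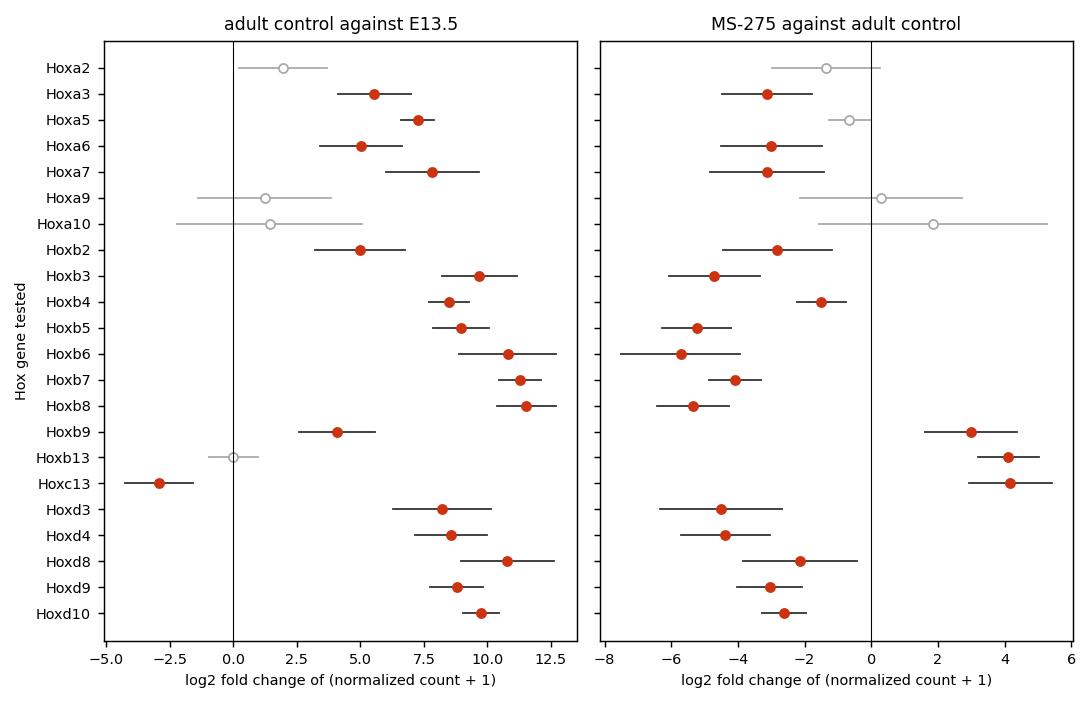
Log2 fold change of 22 tested members with its 95% confidence interval from limma, for adult control against E13.5 (left) and MS-275 against adult control (right). Filled points passed an adjusted p of 0.05. For the first comparison 17 filled points lie right of 0 and Hoxc13 lies left, and for the second 15 lie left of 0 and Hoxb9, Hoxb13 and Hoxc13 lie right.

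MS-275 was compared with adult control to see how inhibition of class I HDACs changes the clusters. Most members expressed in adult control fell, with Hoxa5 not past the test and Hoxb9 higher, and Hoxb9, Hoxb13 and Hoxc13 rose. By limma, 15 of the 39 members fell (7 of Hoxb, 5 of Hoxd and 3 of Hoxa) and 3 rose, against 22.7% of 15452 genes lower and 30.3% higher, and 5 tested members did not pass. The median log2 difference over all 39 members was −0.18, also with genes at their bound, and 0.08 over all genes. The Hoxb cluster summed to 934 ± 120 (SD, n = 4) under MS-275, Hoxd to 1146 ± 162, Hoxa to 282 ± 82.7 and Hoxc to 42.4 ± 29.3. With the close pairs of libraries averaged, 12 members fell and 2 rose. Adult control also serves the comparisons with E13.5 and Wnt3a, so that the 3 comparisons share these libraries.

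All 12 endothelial markers fell with the Hox genes under MS-275, to the summed range given above, with none of them without a read. Over all tested genes 30.3% rose and 22.7% fell, and no marker list was tested against these shares. Some markers of other cells rose: 5 of 8 neuronal markers (summed count 667 to 736, 2 of the 8 without a read), 3 of 8 pericyte and smooth muscle markers (256 to 375), 3 of 8 microglial (107 to 153, against 116 to 221 in adult control), 2 of 8 fibroblast (454 to 553) and 2 of 6 oligodendrocyte lineage markers (33.3 to 60.1). Of the astrocyte list 2 rose and 1 fell (1808 to 2435), of the neural progenitor list 1 rose and 1 fell (48050 to 61010), and 1 blood marker rose (11170 to 20700). Their part in the Hox result was not tested.

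**Figure D4:**
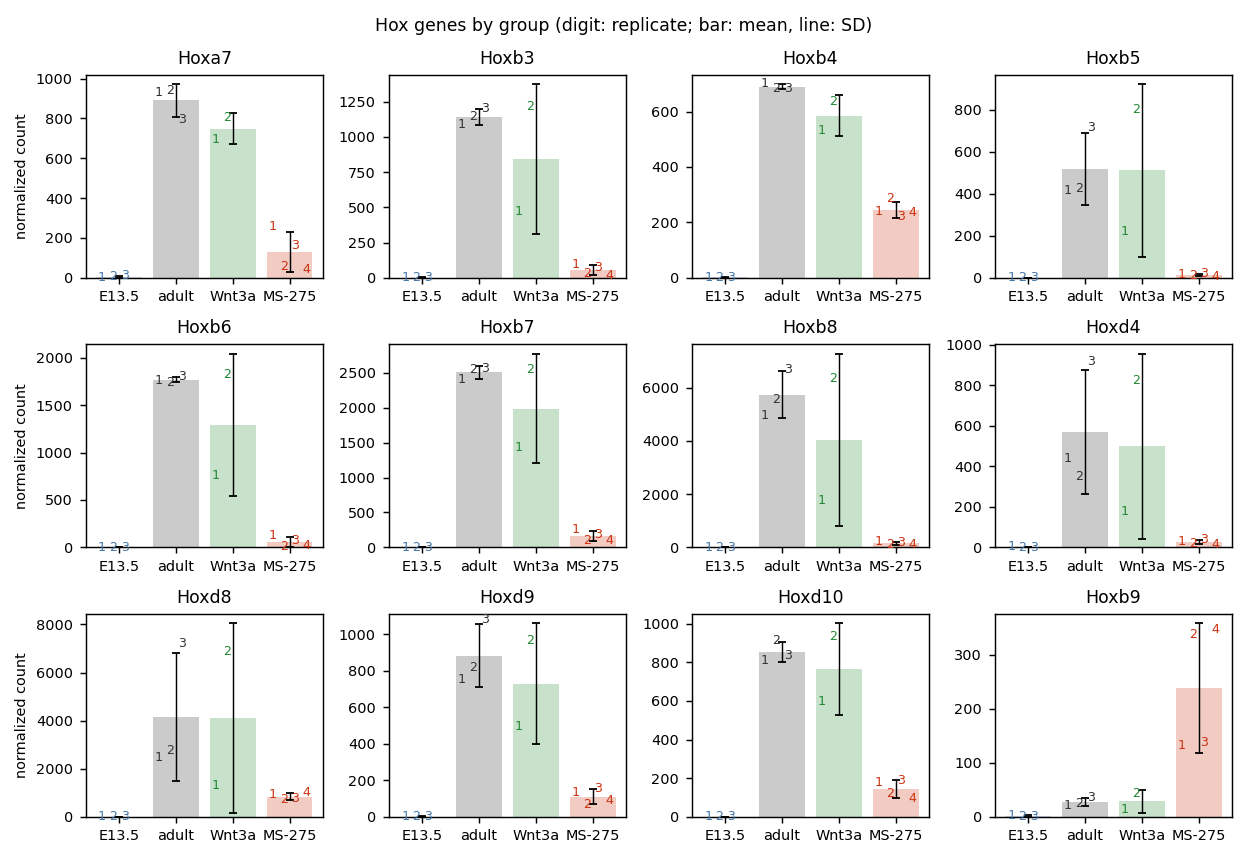
Normalized counts of the 11 members with a mean of at least 500 in some group and of Hoxb9, by group. Digits give the replicate, bars the mean and lines the SD. The E13.5 values lie at 0 on this scale, the MS-275 values lie below all adult controls for the first 11 genes, and for Hoxb9 they lie above, at 131 to 347 against 20.8 to 35.5.

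In the fit of all libraries Hoxb5, Hoxb6 and Hoxb8 had the lowest log2 fold changes. Within adult control 3 with MS-275 2 and 4, 1 of the 2 sets of similar adult libraries, Hoxd3 (log2 −6.78) lay below Hoxb5 (−6.15) and Hoxb8 (−6.03). Hoxb8 had 211, 90.7, 169 and 112 in MS-275 1 to 4, or 2.54% of the adult control mean (log2 −5.36 ± 0.49, adjusted p = 9.86e-06). Hoxb6 had 127, 6.56, 74.6 and 16.4, or 3.17% (log2 −5.72 ± 0.81, adjusted p = 1.63e-04), and varied widely among the treated libraries, with 1.84% left when MS-275 1 was left out. Hoxb5 had 15.4, 10.9, 17.8 and 7.58, or 2.49% (log2 −5.24 ± 0.47, adjusted p = 8.82e-06). No treated library overlapped the controls for any of the 3. Hoxb7 retained 6.31%, with 250, 94.0, 188 and 101 (log2 −4.10 ± 0.35, adjusted p = 7.06e-06), and Hoxb3 4.67%, with 95.5, 31.7, 71.4 and 15.2 (log2 −4.71 ± 0.62, adjusted p = 1.06e-04). Hoxb2, at 7.04 ± 6.17, retained 15.3%, or 9.31% without MS-275 1 (log2 −2.82 ± 0.75, adjusted p = 0.00827).

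Hoxb4 was the member of the Hoxb block that fell least. Its values were 239, 284, 221 and 235, or 35.5% of the control mean (log2 −1.5 ± 0.33, adjusted p = 0.00314), with little spread. Hoxb9 moved the other way, from 20.8, 24.4 and 35.5 in adult control to 131, 338, 138 and 347 under MS-275, an 8.87-fold rise (log2 2.99 ± 0.63, adjusted p = 0.00225). With close pairs of libraries averaged, Hoxb9 no longer passed (log2 2.88, adjusted p = 0.0604). Hoxb13, a gene of the tail end and the prostate, had no read in the 8 libraries of the other groups and 25.6, 10.9, 24.3 and 10.1 under MS-275, at least 19.9-fold higher than in adult control (log2 4.11 ± 0.41, adjusted p = 1.76e-05). It entered the test only through the MS-275 libraries, so that a rise was the only call open to it. The libraries without a read also add no spread to its standard error. The genes Hoxb8 and Hoxb9, next to each other on the chromosome, thus changed in opposite directions.

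In the Hoxd cluster Hoxd3 and Hoxd4 kept smaller shares of their level than Hoxd8, Hoxd9 and Hoxd10, a difference that was not tested. Hoxd3 averaged 23.5 ± 19.2, or 4.88% of the control mean and 8.38% without adult control 3 (log2 −4.51 ± 0.82, adjusted p = 9.16e-04), and Hoxd4, with 29.8, 19.7, 38.1 and 15.2, retained 4.51% (log2 −4.38 ± 0.60, adjusted p = 1.38e-04). Hoxd9, with 133, 64.5, 152 and 90.9, retained 12.5% (log2 −3.05 ± 0.44, adjusted p = 1.99e-04). For Hoxd10 the values were 177, 119, 187 and 93.4, or 16.9% (log2 −2.61 ± 0.30, adjusted p = 3.94e-05). Hoxd8 fell least, with 919, 712, 743 and 990, or 20.3% and 32.2% without adult control 3 (log2 −2.13 ± 0.78, adjusted p = 0.0386), and was the most abundant member left under MS-275. Its call rested on every library: leaving out any 1 of the 7 libraries gave an adjusted p between 0.0533 and 0.132, although all treated libraries lay below all controls.

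In the Hoxa cluster Hoxa7 had 259, 55.7, 164 and 42.9 under MS-275, or 14.6% of the control mean (log2 −3.13 ± 0.77, adjusted p = 0.00562). Hoxa3 fell to 7.80 ± 5.12 (log2 −3.13 ± 0.61, adjusted p = 0.00134) and Hoxa6 to 4.60 ± 4.16, or 14.2% of the control mean and 9.26% without MS-275 1 (log2 −3.0 ± 0.69, adjusted p = 0.00369). Hoxa5 retained 62.8%, at 95.8 ± 11.4, and did not pass (log2 −0.66 ± 0.28, adjusted p = 0.0693), although its treated libraries lay below the controls. With MS-275 1 and 3 alone, Hoxa7 and Hoxb2 no longer passed (adjusted p = 0.0655 and 0.0858).

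The Hoxc cluster gained low counts under MS-275. Hoxc13 had 20.5, 19.7, 53.5 and 17.7, against 0, 0 and 1.97 in adult control, a ratio of 46.7 with an exact counting interval of 12.7 to 390 (log2 4.17 ± 0.56, adjusted p = 1.19e-04). Hoxc13 too passed the filter through the treated libraries, so that a rise was the only call open to it. Hoxc6 and Hoxc4, which were not tested, had no read in adult control and 41 and 17 reads under MS-275, at least 10.5-fold and 4.34-fold higher. Hoxc6 stood at 6.82, 4.37, 22.7 and 1.26 normalized counts, and Hoxc4 at 5.97, 2.19, 4.87 and 2.53. Of all 39 members, tested or not, 17 had every treated library below every control and 5 had every treated library above. Hoxa4 among the 17, and Hoxc4 and Hoxc6 among the 5, were not tested. Of tested genes, 23.4% lay below in this way and 29.8% above.

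The 2 pairs of treated libraries differed over many genes. In 12 of the 15 members that fell, MS-275 2 and 4 both lay below MS-275 1 and 3, as they did in 36% of all tested genes and in 53% of the 3515 genes that fell, and the exceptions were Hoxa3, Hoxb4 and Hoxd8. Hoxb6 averaged 11.5 in MS-275 2 and 4 and 101 in 1 and 3, and Hoxa7 49.3 and 212. Hoxb9 was ordered the other way, with 342 and 135. The summed endothelial markers were 37150, 25030, 19950 and 27990 in MS-275 1 to 4 and did not follow this order.

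Wnt3a was compared with adult control to see whether the ligand changes the clusters. No member passed the test in either direction by limma, against 0% of 15452 genes higher and 0% lower. At an unadjusted p under 0.05, limma gave 0 of the 23 tested members and 1311 genes (8.48%). The edgeR quasi-likelihood test called 0 genes (1267 unadjusted) and DESeq2 called 41, and neither had a member among its calls, adjusted or unadjusted. The median log2 difference over all 39 members was −0.09, and 0 over all genes. The 95% confidence intervals were wide, reaching for Hoxb8 from −2.06 to 0.51 and for Hoxd8 from −2.33 to 1.77. Changes within these bounds remained compatible with the data.

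The 2 Wnt3a libraries differed widely from each other. Hoxb8 had 1748 and 6328 in Wnt3a 1 and 2, Hoxb7 1434 and 2545, and Hoxb6 763 and 1825. Hoxb5 had 221 and 802, Hoxb4 532 and 638, and Hoxb3 468 and 1219. Wnt3a 1 lay below all 3 adult controls for each of the 11 members with a mean of at least 500, while Wnt3a 2 lay within their range for 6 of the 11, above it for 4 and below it for 1. Of all 9699 tested genes with such a mean, Wnt3a 1 lay below every control in 26.4%, and Wnt3a 2 lay within their range in 52.9%, above it in 22.1% and below it in 25%. In Hoxd, Hoxd8 had 1316 and 6893, Hoxd4 176 and 823, Hoxd9 496 and 962 and Hoxd10 595 and 932, and in Hoxa, Hoxa7 had 695 and 803. Wnt3a 2 was close to adult control 3, the control with the high Hoxd8 and Hoxd4, at log2 differences of −0.16 to 0.16 over these 11 members. Hoxa10, an organizer of the uterus and hind limb, separated the same libraries, with 56.2 in adult control 3 and 66.8 in Wnt3a 2 but no read in adult control 1 and 2 or in Wnt3a 1. Hoxa4, which was not tested, and Hoxb4 had both Wnt3a libraries below every control, 2 of 39 members, and 0 had both above. Of tested genes, 8.21% were below and 7.69% above. Without adult control 3 the test called 953 genes higher and 501 lower, and without Wnt3a 2 it called 122 and 115, with no member among them.

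**Figure D5:**
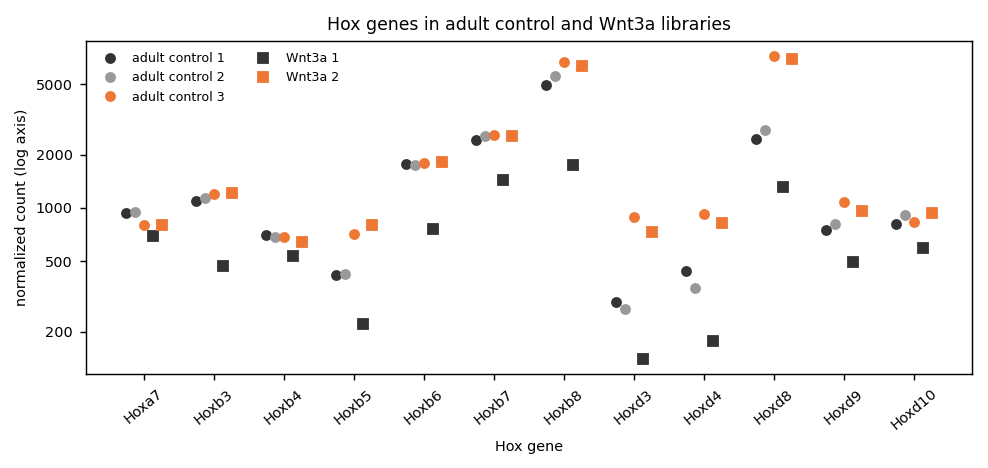
Normalized counts (log axis) of the 11 members with a mean of at least 500 and of Hoxd3 in each adult control and Wnt3a library. Wnt3a 1 is the lowest point of every gene, and Wnt3a 2 lies beside adult control 3, well apart from the other 2 controls for Hoxb5, Hoxd3, Hoxd4 and Hoxd8.

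The partners and regulators of Hox genes were read from the same fit, and no list was tested as a set. The counts of every list below stand beside the shares over all tested genes. These were 19.5% higher and 32.8% lower in adult control than at E13.5, and 30.3% higher and 22.7% lower under MS-275. Of 9 TALE genes, 2 were higher and 4 lower in adult control than at E13.5, and 2 rose and 3 fell under MS-275. Pbx3 was higher in adult control than at E13.5 (1151 ± 101 against 473 ± 85.8, adjusted p = 6.90e-04) and fell under MS-275 to 268 ± 52.8 (adjusted p = 1.98e-05), and Pbx2 fell from 1595 ± 142 to 884 ± 121 (adjusted p = 0.00171). Pknox2, without a read in adult control, stood at 667 ± 127 at E13.5 and 25.4 ± 9.08 under MS-275, and Meis3 at 2.61 ± 3.14 in adult control and 219 ± 32.7 at E13.5. Of the Cdx and other ParaHox genes and the Evx genes, none reached the minimum for a test.

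Among 12 components of Polycomb complex PRC2, which places the H3K27 methyl mark, 1 was higher and 3 were lower in adult control, and 1 rose and 3 fell under MS-275. Of its methyltransferases, Ezh1 was higher in adult control than at E13.5 (1738 ± 399 against 448 ± 27.1, adjusted p = 1.62e-05) and Ezh2 lower (750 ± 306 against 2156 ± 377, adjusted p = 0.00103). Epop rose under MS-275 from 77.2 ± 44.7 to 354 ± 109 (adjusted p = 0.00108), and Rbbp4, a histone-binding subunit, fell from 3843 ± 565 to 2674 ± 228 (adjusted p = 0.0106). Of 20 PRC1 components, 5 were higher and 4 lower in adult control, and 4 rose and 7 fell under MS-275. Pcgf2 fell under MS-275 from 788 ± 42.3 to 176 ± 19.1 (adjusted p = 1.73e-06), Cbx6, a reader of the mark, from 8493 ± 178 to 2422 ± 73.9 (adjusted p = 4.35e-06), and Scmh1 from 884 ± 77.5 to 275 ± 38.5 (adjusted p = 1.08e-05). Phc1 was lower in adult control than at E13.5 (618 ± 152 against 1679 ± 388, adjusted p = 2.33e-04).

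Of 12 MLL and Trithorax-type activators, 1 was higher and 3 were lower in adult control, and 3 rose and 3 fell under MS-275. The methyltransferases Ash1l and Kmt2b fell under MS-275, from 4374 ± 725 to 1781 ± 188 (adjusted p = 5.10e-05) and from 1924 ± 384 to 595 ± 170 (adjusted p = 1.16e-04), and the core subunit Rbbp5 rose from 1569 ± 51.8 to 3045 ± 282 (adjusted p = 6.02e-05). Wdr5, another core subunit, was lower in adult control than at E13.5 (1175 ± 153 against 1865 ± 105, adjusted p = 0.00117). Of the 4 class I HDACs, Hdac1 rose under MS-275 from 1564 ± 91.0 to 2640 ± 217 (adjusted p = 0.00384) and Hdac8 fell from 448 ± 23.3 to 213 ± 74.4 (adjusted p = 0.00252). Hdac2 (adjusted p = 0.0862) and Hdac3 (adjusted p = 0.0901) did not pass in this comparison, while Hdac3 was lower in adult control than at E13.5 (872 ± 80.9 against 1528 ± 245, adjusted p = 9.10e-04).

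Of 14 retinoic acid genes 13 were tested. Among them 8 were lower and 0 higher in adult control than at E13.5, and 7 rose and 4 fell under MS-275. Crabp1, which binds retinoic acid in the cell, the synthesizing enzyme Aldh1a2 and the receptor Rxrg had no read in adult control and stood at 7843 ± 4771, 322 ± 51.4 and 14.7 ± 5.57 at E13.5. Aldh1a3, a second synthesizing enzyme, stood at 2023 ± 1100 at E13.5, 6.84 ± 4.37 in adult control and 52.2 ± 14.5 under MS-275, and passed in both comparisons (adjusted p = 1.37e-06 and 0.00187). Of 13 homeobox and forkhead genes of the forebrain and midbrain 12 were tested. Among them 11 were lower in adult control than at E13.5 and 0 were higher, and 4 rose under MS-275. Emx2 and Otx2, which pattern the forebrain, had no read in adult control or under MS-275 and stood at 495 ± 74.1 and 646 ± 24.7 at E13.5, and Six3 at 1.31 ± 2.28 in adult control against 1750 ± 73.7. The region of origin of the cultures was not tested.

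The 5 nearest genes of the table on each side of each cluster, 40 in all, were examined to see where the blocks end. Of the 35 that were tested, 6 were higher and 5 lower in adult control against E13.5, and 13 rose and 5 fell under MS-275. Over all tested genes 19.5% were higher and 32.8% lower in the first comparison, and 30.3% rose and 22.7% fell in the second. The median log2 difference was 0.10 and 0.23, beside −0.20 and 0.19 over all tested genes. Evx1 and Evx2, the homeobox genes behind Hoxa13 and Hoxd13, had no read in adult control. Skap2, the nearest gene beyond the low-numbered end of Hoxa, was higher in adult control than at E13.5 (2531 ± 610 against 206 ± 24.5, adjusted p = 3.92e-08). Creb5 and Nfe2l3, further out on either side of Hoxa, were lower (24.0 ± 3.18 against 1134 ± 398 and 9.29 ± 1.72 against 260 ± 19.8, adjusted p = 8.04e-07 and 2.03e-06) and rose under MS-275 to 205 ± 75.2 and 59.0 ± 15.1 (adjusted p = 8.34e-05 and 2.12e-04). Lnpk, behind Hoxd13 and Evx2, was lower in adult control than at E13.5 (151 ± 64.7 against 876 ± 43.3, adjusted p = 7.31e-06) and rose under MS-275 to 740 ± 126 (adjusted p = 2.05e-05), opposite in direction to the Hoxd block beside it.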

How the data were processed

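Reads were aligned by the authors with STAR to mm10 after FastQC and cutadapt, and counted per GENCODE protein-coding gene (featureCounts in the submitters' processing notes). The deposited signal values are DESeq2 normalized counts, that is, read counts divided by a size factor per library. Dividing by the value of 1 read recovered whole reads for 100% of the values (tolerance 0.01 reads). Counts of 1 to 10 reads were even in 71.7 to 77.2% of cases, so reads were not independent and counting intervals, which cover counting error only, are too narrow. Of 21638 rows, 26 named by a date (0.21 to 0.282% of the values of a library) and 1 with a missing value were left out, and every deposited column was used.

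Genes at 10 or more in 2 or more libraries entered the tests, made with limma 3.58.1 on log2(normalized count + 1), with trend and robust options, in 1 fit of all 12 libraries, two-sided, with Benjamini-Hochberg adjustment over all tested genes and a threshold of 0.05. A fold change on this scale understates the change of low genes. The fit was checked on simulated counts. Alternatives were edgeR 4.0.16 and DESeq2 1.42.0 on the recovered reads, other pseudocounts, filters and scalings, a replicate block, averaged pairs and omitted libraries. Adult libraries were also split into 2 sets by the first component of their deviations from group means, chosen after seeing the data. Exon lengths and overlaps came from GENCODE M21 on the same build.

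The values of 1 member and of 1 forebrain gene are not reported here, though both stay in the fits and counts. Values in every library are given for members with a mean of at least 500 in some group, group means for other members called, names for the rest, and 4 genes with the smallest adjusted p for each list. Members and lists were chosen with earlier results of these data known.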

Additional observations from a re-analysis of the deposited data

Results flagged for a closer look

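Among the 22 members that reached a normalized count of 10 in some MS-275 library, 1 had a library far from the others of its group. Hoxc13 stood at 53.5 in MS-275 3, with the next library at 20.5, a gap of 0.922 of the range, above Dixon's critical value for 4 libraries. Chance marks about 1 in 20 groups in this way.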

How the results depend on the processing

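Hox genes called higher in adult control than at E13.5 numbered 16 to 18 over the settings run. The 1 member called lower became 2 without a filter, and 0 with quantile normalization and, with Hoxc13 no longer among the genes tested, with a filter of 50 or in a fit of the 2 groups alone. Under MS-275 the 3 members called higher became 5 without a filter. With a filter of 50 only 1 was called higher, since Hoxb13 and Hoxc13 were no longer tested. Members called lower ranged from 12 to 16. Over all genes, quantile normalization gave 4604 higher in adult control than at E13.5 and, for Wnt3a, 15 higher and 13 lower. DESeq2 gave 29 higher and 12 lower for Wnt3a. Leaving out 1 library gave 0 to 953 higher and 0 to 501 lower for Wnt3a. With close pairs averaged, all genes called were 1495 higher and 3282 lower in adult control than at E13.5, and 2156 higher and 1738 lower under MS-275. With a minimum of 50 the members expressed under MS-275 fell from 13 to 8, and per kb of exon Hoxd8 ranked 3 and not 2 in adult control. Scaling shifted the median of all genes for adult control against E13.5 by −0.13 (equal totals) and 0.27 (quantile).

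Correlations of same-numbered deviations from group means ran from −0.44 to 0.44. The component that split the 2 library sets held 46.1% of the variance of these deviations. The correlations therefore do not settle whether replicate numbers pair the libraries. With a replicate block 17 and 1 members were called for E13.5, 0 for Wnt3a, and 3 and 14 for MS-275, where Hoxd8 was lost (log2 −2.22, adjusted p = 0.0893). Hoxd8 was also lost with a pseudocount of 0.5 (adjusted p = 0.0726). Hoxa7, Hoxb2, Hoxb9 and Hoxd8 were lost with close pairs averaged. With the 2 library sets as a block, 4 members rose and 16 fell under MS-275, 0 were called for Wnt3a, and within each set all 18 called members kept their direction. Log2 fold changes for Wnt3a changed sign when 1 library was left out (the cause was not tested), with ranges of −1.29 to 0.092 for Hoxb3, −1.18 to 0.68 for Hoxb5, −1.22 to 0.043 for Hoxb6, −0.81 to 0.022 for Hoxb7, −1.70 to 0.15 for Hoxb8, −0.52 to 0.13 for Hoxd10, −1.56 to 0.66 for Hoxd4, −1.48 to 0.91 for Hoxd8 and −0.81 to 0.14 for Hoxd9.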
